A study of Mus musculus with 12 samples.

Results

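The 30 genes described here are listed as building the peroxisome or carrying out its oxidation and ether lipid chemistry. They were followed in spinal cord RNA of mice with floxed Tardbp, with and without a Gfap-Cre transgene. They were taken by gene symbol from a table of 36121 genes: each of the 30 symbols had 1 row, and all 30 passed the filter of a mean of at least 1 normalized TPM over 12 mice that left 15259 genes to test. TPM is in origin a share of all transcripts, divided by transcript length, so that levels can be set side by side between genes. The normalized values used here were also scaled between libraries. Their sums differ by library, as given below, so they are no longer strict shares. The list holds 14 biogenesis genes and 16 enzymes and transporters; other genes of the organelle are given below as separate lists.

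Peroxisomes are small membrane-bound organelles that import their enzymes fully folded from the cytosol, with the help of peroxin proteins encoded by the Pex genes. Inside, they shorten very-long-chain and branched fatty acids, break down the hydrogen peroxide that this releases, and make the early intermediates of plasmalogens, the ether lipids that are abundant in myelin. Inherited loss of peroxins, of the fatty acid transporters or of single oxidation enzymes damages white matter and nerve in humans, which is why the pathway is of interest in the cord.

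All mice were C57BL6 and 3 months old. Control mice were Tardbp-fl/fl, both alleles floxed and no Cre. The cHet mice were Gfap-Cre; Tardbp-fl/+, and the cKO mice were Gfap-Cre; Tardbp-fl/fl, so that both of these groups carry the Cre transgene and the control group does not. Each group had 4 mice, by label 2 of each sex, with a library from each mouse. The RNA-binding protein TDP-43 is the product of Tardbp, and Gfap is an astrocyte gene whose promoter drives the Cre. The labels call the cHet and cKO mice astrocyte-specific conditional knockouts, hemizygous and homozygous. They do not name the Gfap-Cre line, and the sources used here give no measurement of which cells recombined. The RNA is that of the whole tissue, so every cell type of the cord contributes to a level, and fewer cells of a type cannot be told apart from less RNA per cell.

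Control cords held 171 ± 6.73 TPM of Tardbp (SD, n = 4, here and below), cHet cords 170.4 ± 8.64 and cKO cords 148 ± 5.06. Library sums of normalized TPM ran from 954895 to 978621 in control, from 983452 to 1023990 in cHet and from 1017860 to 1048380 in cKO. Mitochondrially encoded genes took 17.3% ± 1.08 in control, 17.2% ± 0.886 in cHet and 19.6% ± 0.689 in cKO. In 11 of 12 libraries the summed Y-linked RNA matched the labelled sex. The exception was control replicate 1, labelled male, at 2.49 TPM, where the other males held 93.6 to 120.2 and the females 2.48 to 4.27, so results that use sex are given with and without it. Cell type markers also moved in cKO against control, where 5.75% of all genes tested were called higher and 3.25% lower. Of the markers tested, 8 of 10 for oligodendrocytes and myelin were lower and 6 of 8 for microglia were higher. For astrocytes 3 of 10 were higher and 2 lower. For neurons 3 of 8 were higher, for meningeal fibroblasts 1 of 4 was higher and for oligodendrocyte precursors 1 of 4 was lower, and none passed among 5 endothelial and 4 ependymal markers, nor at an unadjusted p under 0.05. Of 3 Schwann cell and 3 skeletal muscle markers 1 each reached the filter and neither was called, and none of 3 adipocyte markers reached it (summed level at most 0.602 TPM in any mouse). Against cHet, 10 of 10 myelin markers were lower in cKO and 5 of 8 microglial markers were higher. Astrocyte markers were higher for 4 of 10 and lower for 2, and neuron markers were higher for 2 of 8. Of 4 meningeal fibroblast markers 1 was higher, of 4 oligodendrocyte precursor markers 1 was lower, and no marker of the other lists was called. Over all genes 2.61% were lower and 2.41% higher there. In cHet against control no marker was called, and neither was any of the 15259 genes tested. Summed marker levels were 20834 to 21776 TPM in control and 17308 to 19723 in cKO for myelin, 250.05 to 259 and 322 to 352 for microglia, 3077 to 3198 and 3509 to 3708 for astrocytes, and 2749 to 2924 and 2972 to 3111 for neurons. The part that these shifts have in the changes of the peroxisome genes was not tested.

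The peroxisome genes spanned a wide range of levels in control cord, and 3 were at 100 TPM or more: Scp2, which encodes a lipid carrier and thiolase, at 206.8 ± 6.80 TPM, Pex5l, a relative of the import receptor Pex5, at 197.4 ± 1.82, and Phyh, the first enzyme of alpha-oxidation, at 113.1 ± 2.40. The lowest were Acox2 at 0.978 ± 0.409 TPM, Pex11g at 1.75 ± 0.328 and Ehhadh at 3.12 ± 0.146. Together the 30 genes made up 0.141% ± 0.00129 of the summed level in control, 0.140% ± 0.00187 in cHet and 0.133% ± 0.00341 in cKO, while their summed level was 1368 ± 13.4 TPM, 1406 ± 19.6 and 1370 ± 24.0, beside library totals that were larger in cKO. Without Scp2 and Pex5l the sum was 963 ± 7.40 TPM in control cords, 986 ± 22.5 in cHet cords and 993 ± 18.1 in cKO cords. Mean library totals also rose, from 967165 TPM in control to 1002460 in cHet and 1031670 in cKO. A larger sum is therefore not a larger share.

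**Figure D1:**
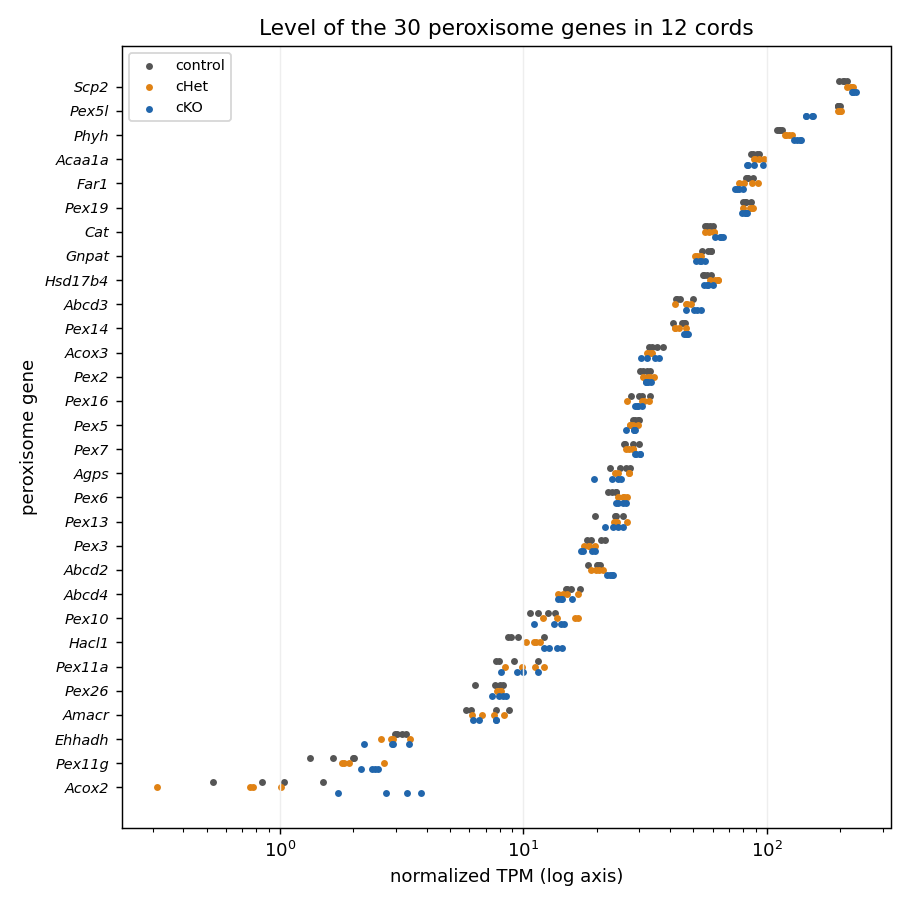
Normalized TPM (log axis) of the 30 peroxisome genes, 1 point a mouse, with control, cHet and cKO in separate colours and genes ordered by level. Scp2, Pex5l and Phyh lie above 100 TPM in control, and Acox2 is the only gene with cKO points far to the right of the rest.

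In cKO cords 6 of the 30 genes rose and 1 fell against control, and 23 were not called. Those that rose were Acox2, Hacl1, Phyh, Abcd2, Cat and Scp2, all enzymes or a transporter, and the gene that fell was Pex5l. The share called was 23.3%, beside 9.00% of all 15259 genes tested, and in single directions the background was 5.75% higher and 3.25% lower. The list was chosen with earlier results of these data known, so these shares are no test of it. The median log2 change was 0.03 over the 30 genes and 0.01 over all genes tested, with 18 positive and 12 negative changes on the list. Among the 14 genes listed under biogenesis 0 rose and 1, Pex5l, fell, and among the 16 enzymes and transporters 6 rose and 0 fell. Without control replicate 2 the count was 4, with 3 higher and 1 lower, and without control replicate 1, whose sex label is in doubt, it was 7.

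**Figure D2:**
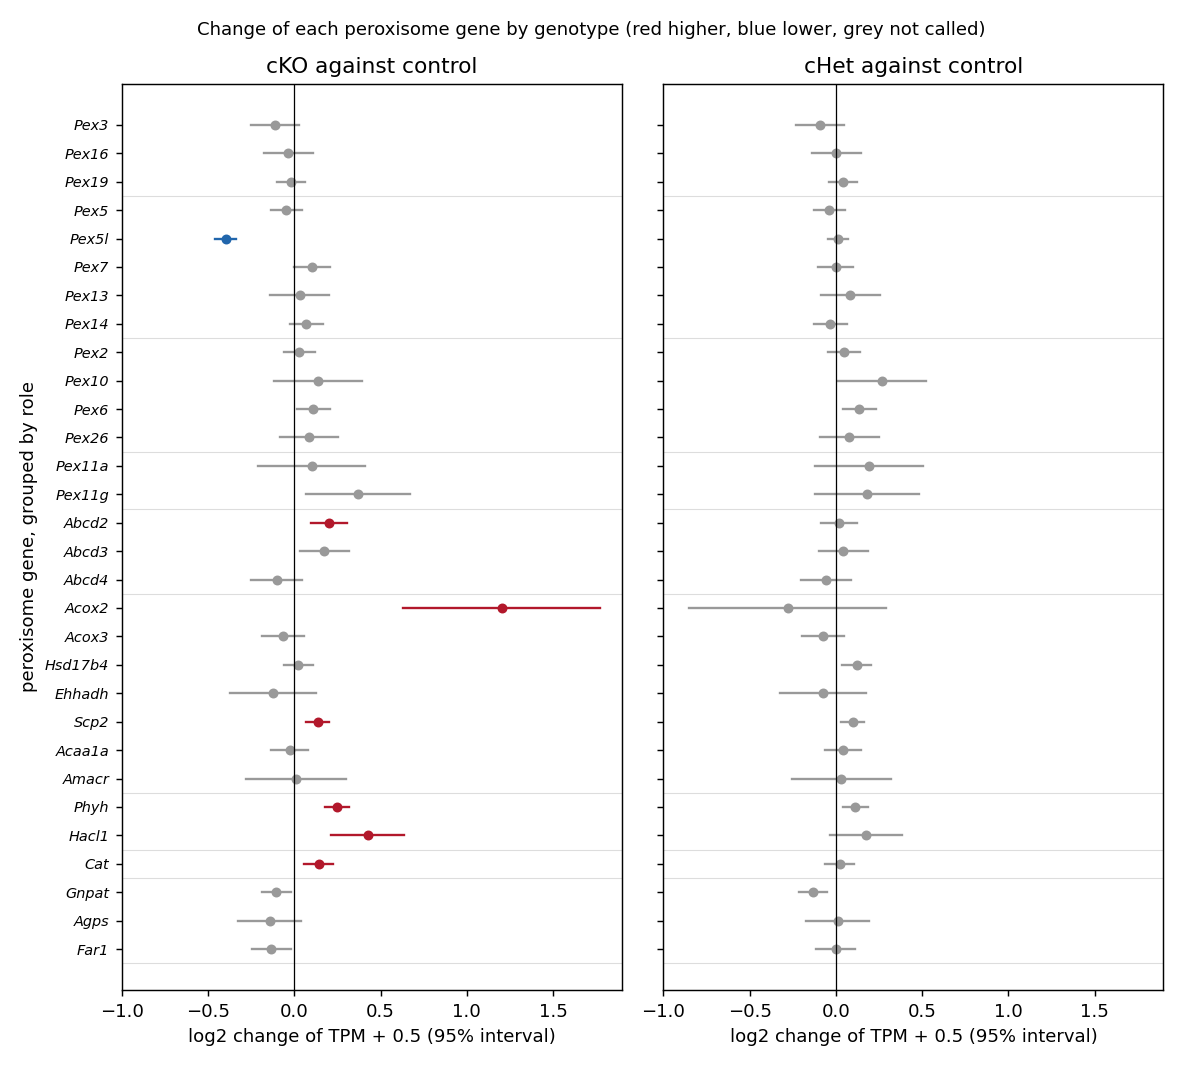
Log2 change of TPM + 0.5 with its 95% interval for the 30 genes, grouped by role, for cKO against control on the left and cHet against control on the right. Coloured points passed an adjusted p of 0.05: on the left 6 are higher and 1 is lower, on the right there are none.

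The upstream sequences of the genes that rose, without Abcd2, are shown because each of these genes was called higher in cKO. Whether they vary together was not tested. Each sequence is the 250 bases before a RefSeq start of transcription in GRCm38.p6, written 5′ to 3′ on the gene's own strand. Capitals mark the nuclear receptor core AGGTCA, the GC box GGGCGG and the CCAAT box on either strand. Phyh is at chr2:4918746-4918995 on the plus strand. The others lie on the minus strand, Cat at chr2:103485154-103485403, Scp2 at chr4:108118548-108118797, Acox2 at chr14:8259020-8259269 and Hacl1 at chr14:31640966-31641215. The RefSeq start used for Scp2 lies well inside the gene as GENCODE places it, which on that strand begins at 108144998. The window before that outer start was not searched.
Acox2: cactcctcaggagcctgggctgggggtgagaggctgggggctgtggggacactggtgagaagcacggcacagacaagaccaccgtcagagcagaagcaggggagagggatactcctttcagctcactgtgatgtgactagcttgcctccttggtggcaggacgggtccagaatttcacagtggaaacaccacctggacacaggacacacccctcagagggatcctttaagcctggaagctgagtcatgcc
Phyh: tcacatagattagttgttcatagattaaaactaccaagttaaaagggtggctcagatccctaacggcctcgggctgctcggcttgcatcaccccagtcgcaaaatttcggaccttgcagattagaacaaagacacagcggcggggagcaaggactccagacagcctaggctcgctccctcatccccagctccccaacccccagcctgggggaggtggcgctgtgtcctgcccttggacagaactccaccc
Hacl1: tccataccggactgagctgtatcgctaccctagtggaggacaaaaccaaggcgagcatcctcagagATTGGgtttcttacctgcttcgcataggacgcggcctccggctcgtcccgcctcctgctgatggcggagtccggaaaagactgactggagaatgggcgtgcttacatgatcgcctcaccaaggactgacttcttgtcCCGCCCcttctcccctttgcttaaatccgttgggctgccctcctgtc
Scp2: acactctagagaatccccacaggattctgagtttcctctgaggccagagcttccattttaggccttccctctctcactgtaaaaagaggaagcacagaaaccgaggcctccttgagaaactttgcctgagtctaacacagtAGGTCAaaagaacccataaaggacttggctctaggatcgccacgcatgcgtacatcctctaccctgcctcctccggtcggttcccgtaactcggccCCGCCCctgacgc
Cat: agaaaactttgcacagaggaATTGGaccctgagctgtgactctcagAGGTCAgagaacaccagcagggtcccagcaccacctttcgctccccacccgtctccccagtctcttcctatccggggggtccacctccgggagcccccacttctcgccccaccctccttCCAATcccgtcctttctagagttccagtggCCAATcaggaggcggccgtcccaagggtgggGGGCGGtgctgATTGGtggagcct

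Cat carried 4 CCAAT boxes, 13 to 230 bases before the start, 1 GC box and 1 AGGTCA. Scp2 carried 1 AGGTCA and 1 GC box, Hacl1 carried 1 GC box and 1 CCAAT box, and the windows shown for Phyh and Acox2 held none of the 3. Acox2 has another RefSeq start, whose window (chr14:8258840-8259089) held 1 CCAAT box 36 bases before it. For the shares, 1 promoter a gene, at the start that the table lists first, was searched on both strands for 23 of the 30 genes, and those of Pex5l and Abcd2 were not among them. The textbook site of the fatty acid sensor PPAR with its partner RXR is a tandem repeat of AGGTCA with 1 base between the copies. It was in 0 of these 23 promoters and in 0.037% of the 27025 promoters in the table. Only exact letters were searched, and at so rare a share 0 of 23 cannot tell this list from any other. AGGTCA alone was in 3 of 23 (13%), beside 13.8% of all promoters. CCAAT was in 34.8% beside 34.5%, the TATA box TATAAA in 13% beside 13%, the E-box CACGTG in 4.35% beside 6.05% and TGACGTCA in 4.35% beside 1.62%. GGGCGG was in 15 of 23 (65.2%), beside 32.9% of all promoters. GC content was 53.6% to 62% in the windows shown and 40% (Pex7) to 72% (Abcd3) over the 23. Its median over all promoters was 52%. The 27025 promoters were not matched to the 23 for GC content or for expression in cord, so the higher share of GGGCGG cannot be put down to the list. A match is only a match of letters within the window.

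Alpha-oxidation removes a single carbon from branched fatty acids such as phytanic acid, and both of its enzymes on the list rose. Phyh (ENSMUSG00000026664, chromosome 2, 4919019 to 4938730, plus strand, GRCm38 as below), phytanoyl-CoA hydroxylase, was at 112.9, 113.2, 110.3 and 116.2 TPM in control cords, at 118.7, 127.6, 123.1 and 120.5 in cHet, and at 129, 138.4, 137 and 133.2 in cKO. Every cKO cord was above every cHet cord, and every cHet cord was above every control. The log2 change of cKO against control was 0.25 ± 0.03 (SE), with an adjusted p of 0.000646 by limma. This stepwise order without overlap was seen after the values and held for 58 of 15259 genes (0.38%). The opposite order held for 7 (0.0459%). With libraries rescaled to equal totals without the mitochondrially encoded genes, the log2 change of cHet against control was 0.06 in place of 0.11. The order itself was not looked at under that scaling. Hacl1 (ENSMUSG00000021884, chromosome 14, 31598730 to 31641286, minus strand), the lyase that cleaves the hydroxylated product, was at 12.2, 8.88, 9.54 and 8.67 TPM in control cords, 11.3, 11.0, 11.7 and 10.2 in cHet, and 14.4, 12.7, 13.7 and 12.2 in cKO. Control replicate 1 lay level with the lowest cKO cord, so these groups overlapped. The log2 change was 0.42 ± 0.10, adjusted p = 0.0183 by limma, and 0.0560 and 0.0526 without control replicates 2 and 4. Hacl1 shares 1540 bases of exon with Gm49387 on the same strand, which was listed at 0.452 TPM in control and 0.140 in cKO, so reads could be split between them.

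Beta-oxidation shortens fatty acids and bile acid precursors by 2 carbons a round, and 2 of its 7 genes rose. Acox2 (ENSMUSG00000021751, chromosome 14, 8225511 to 8259353, minus strand), the oxidase that starts on branched chains and bile acid intermediates, was at 0.528, 0.844, 1.04 and 1.505 TPM in control cords, 0.312, 0.754, 1.01 and 0.772 in cHet, and 3.32, 2.74, 3.81 and 1.73 in cKO. All 4 cKO cords were above the other 8. Its log2 change against control was 1.20 ± 0.26 (95% interval 0.63 to 1.77), adjusted p = 0.0149 by limma, on the log2(TPM + 0.5) scale that understates the change of a low gene. With control and cHet means under 1 TPM, Acox2 passed the level filter only through cKO; with no filter on level its adjusted p was 0.0312. Scp2 (ENSMUSG00000028603, chromosome 4, 108043839 to 108144998, minus strand), which trims the same branched chains at the thiolase step, was at 206.6, 197.8, 214.1 and 208.8 TPM in control cords, 222.9, 226.6, 222.4 and 213.3 in cHet, and 224.0, 225.7, 232.0 and 226.5 in cKO. The cKO cords were all above control and overlapped cHet. The log2 change was 0.13 ± 0.03, adjusted p = 0.0153 by limma, and the pseudogene Scp2-ps2 was listed at 0.379 TPM in control and 0.0820 in cKO.

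The other 5 genes of beta-oxidation were not called. Log2 changes were -0.07 for Acox3, the pristanoyl-CoA oxidase, 0.02 for Hsd17b4 and -0.12 for Ehhadh, the multifunctional enzymes of the middle steps, -0.03 for Acaa1a, the straight-chain thiolase, and 0.01 for Amacr, which converts branched chains to the form that can be oxidized. Levels of Acaa1a were 89.5 ± 2.84 TPM (control) and 87.9 ± 5.96 (cKO). A near-identical gene, Acaa1b, was listed at 1.19 and 1.48 TPM, so reads may be shared between them. Summed over the 7 genes the level was 399 ± 6.36 TPM in control cords, 419 ± 4.38 in cHet and 418.6 ± 13.9 in cKO. Library totals were also larger in cHet and cKO than in control, as given above.

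Transport across the membrane is the step before oxidation, and 1 of 3 transporters rose. Abcd2 (ENSMUSG00000055782, chromosome 15, 91145871 to 91191799, minus strand), a carrier of very-long-chain acyl-CoA, was at 20.7, 20.03, 18.4 and 20.3 TPM in control cords, 19.0, 20.4, 21.3 and 19.9 in cHet, and 22.2, 23.2, 23.3 and 22.8 in cKO. All 4 cKO cords were above all others, by a log2 change of 0.20 ± 0.05 against control (adjusted p = 0.0228 by limma). That call was lost without control replicate 2 (0.0502) or 3 (0.0590) or cKO replicate 2 (0.0657), 3 (0.0609) or 4 (0.0542). Abcd3, the abundant carrier of branched chains, stood at 44.8 ± 3.58 TPM in control cords and at 50.5 ± 3.02 in cKO cords (0.17 ± 0.06, adjusted p = 0.124 by limma). Abcd4, whose protein is known for vitamin B12 export from the lysosome, was at 15.7 ± 0.931 and 14.6 ± 0.904 (-0.10 ± 0.07).

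Catalase removes the hydrogen peroxide made by the oxidases. Cat (ENSMUSG00000027187, chromosome 2, 103453849 to 103485160, minus strand) was at 58.7, 57.0, 60.4 and 55.9 TPM in control cords, 56.0, 60.7, 57.9 and 60.9 in cHet, and 64.1, 64.7, 65.9 and 61.3 in cKO. Each cKO cord was above each of the other 8. The log2 change was 0.14 ± 0.04 and its adjusted p of 0.0390 by limma was the closest to the threshold of the 7 called genes. It was not called with libraries rescaled by the median of ratios (adjusted p = 0.0627), and it missed the threshold without control replicate 1 (0.0663), 2 (0.102) or 4 (0.103) or without cKO replicate 1 (0.0771), 2 (0.0988) or 3 (0.105).

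Ether lipid synthesis starts in the peroxisome with Gnpat and Agps, and Far1 supplies the fatty alcohol. None of the 3 was called in cKO, and all 3 had a negative log2 change: -0.10 ± 0.04 for Gnpat (adjusted p = 0.118 by limma), -0.14 ± 0.08 for Agps (0.359) and -0.13 ± 0.05 for Far1 (0.145). Gnpat and Far1 had an unadjusted p under 0.05. Far1 was at 83.7, 82.0, 83.2 and 87.7 TPM in control and 80.2, 77.1, 75.6 and 74.0 in cKO, groups that did not overlap. The 3 genes summed to 167.1 ± 5.62 TPM in control cords, 162.4 ± 7.85 in cHet and 153.3 ± 4.93 in cKO. The summed myelin markers were lower in cKO cords as given above, and the part of that shift here was not tested.

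**Figure D3:**
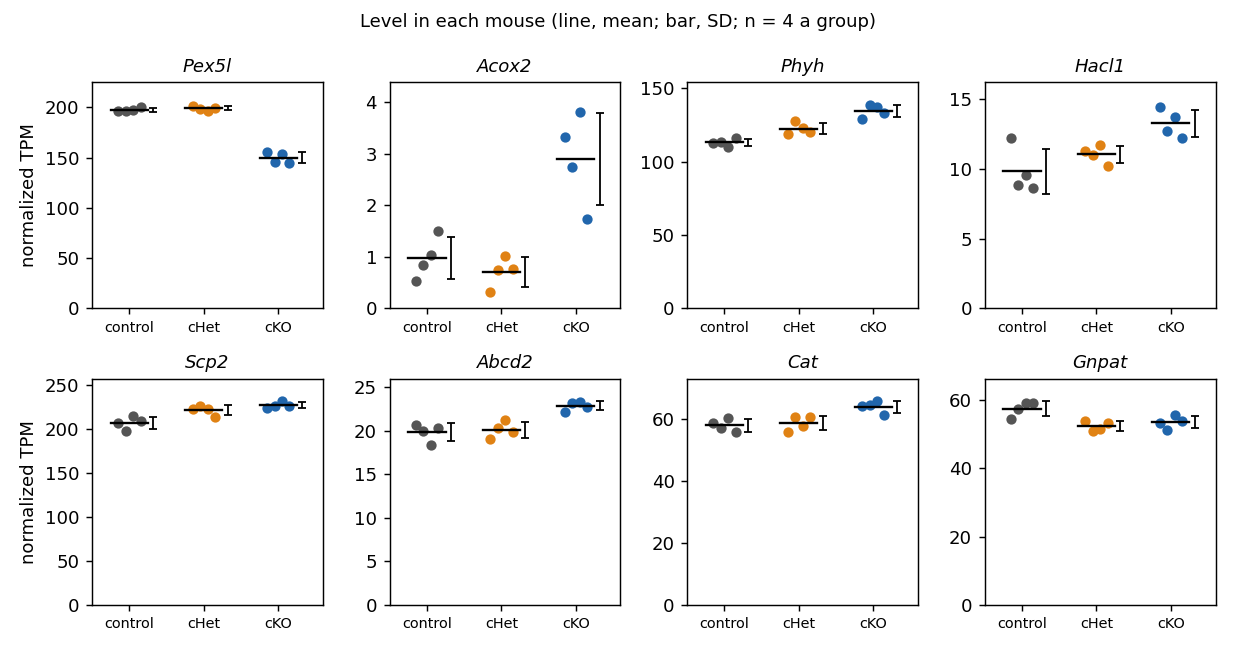
Normalized TPM in each mouse for the 7 genes called in cKO and for Gnpat, with the mean as a line and the SD as a bar, axes from 0. Pex5l sits at 144.8 to 155.3 in cKO and at 196.1 to 201.7 in the other 8 mice; Acox2 sits at 1.73 or more in cKO only.

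Of the genes listed under biogenesis, Pex5l stood apart. Pex5l (ENSMUSG00000027674, chromosome 3, 32949408 to 33143247, minus strand, 193.84 kb, the longest of the 30) resembles the import receptor Pex5 in its cargo-binding repeats, and in neurons its protein is known as TRIP8b, an auxiliary subunit of HCN channels. It was at 196.1, 196.3, 197.3 and 200.1 TPM in control cords, 201.7, 198.6, 196.5 and 199.9 in cHet, and 155.3, 145.5, 153.6 and 144.8 in cKO. The cKO cords lay well below the other 8, which were within 196.1 to 201.7. The log2 change was -0.40 ± 0.03 against control (95% interval -0.46 to -0.34, adjusted p = 1.41e-05 by limma), a level 24.1% lower. The marker sums given above were higher in cKO than in control for neurons, astrocytes and microglia and lower for myelin. Library totals were also larger in cKO, and the neuron sum in cHet cords, 2831 to 3028 TPM, overlapped that in cKO. The part of these shifts in the fall of Pex5l was not tested. Pex5l has 340 bases of exon opposite Gm37459, and the labels do not say whether the kit marked strand.

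The other 13 biogenesis genes were not called, with log2 changes from -0.11 to 0.37. Those that insert membrane proteins were at -0.11 (Pex3), -0.03 (Pex16) and -0.02 (Pex19). The matrix import receptors Pex5 and Pex7 were at -0.05 and 0.10, and their docking partners Pex13 and Pex14 at 0.03 and 0.07. For the ubiquitin ligases Pex2 and Pex10 the changes were 0.03 and 0.14, and for Pex6, the ATPase that pulls receptors back out, and its anchor Pex26 they were 0.11 and 0.09. Pex11a and Pex11g, which shape the membrane for division, were at 0.10 and 0.37. Pex11g was at 1.66, 1.999, 2.02 and 1.33 TPM in control and 2.39, 2.46, 2.14 and 2.53 in cKO, without overlap, yet its adjusted p was 0.130 by limma.

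Groups of 4 did not overlap between control and cKO for 9 of the 30 genes (30%), 7 higher and 2 lower, beside 17.1% of all genes tested (10.5% higher, 6.59% lower). These were 6 of the 7 called genes (all but Hacl1) with Pex6, Pex11g and Far1. At an unadjusted p under 0.05, 12 of the 30 genes (40%) passed, beside 22.8% of all genes. For the 23 genes not called, the 95% interval of the log2 change lay within ±0.5 for 22 (all but Pex11g) and within ±0.25 for 15. The authors' deposited table gave q under 0.05 in both its likelihood ratio test and its Wald test for Pex5l, Acox2, Scp2, Phyh, Hacl1 and Cat. For Abcd2 the authors' deposited table gave 0.148 and 0.216.

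The size of the small changes depended on how libraries were scaled. With libraries rescaled to equal totals without the mitochondrially encoded genes, Scp2 (0.08, adjusted p = 0.0790 by limma), Abcd2 (0.15, 0.0791) and Cat (0.09, 0.166) were no longer called, while Gnpat was called lower (-0.16, 0.0361). Pex5l, Acox2, Phyh and Hacl1 were called under each of the 3 scalings. Over all genes that rescaling turned 878 higher and 496 lower into 473 higher and 822 lower, with a median log2 change of -0.04 in place of 0.01, and the median of ratios gave 734 and 545.

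**Figure D4:**
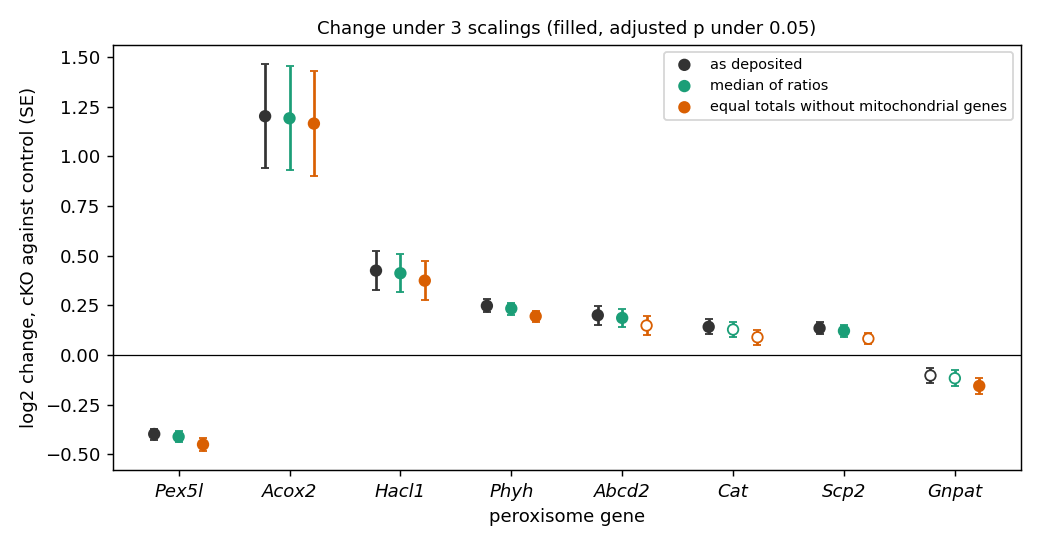
Log2 change of TPM + 0.5 in cKO against control (bars, SE) for the 7 called genes and Gnpat under 3 scalings of the libraries; filled points have an adjusted p under 0.05. Pex5l, Acox2, Hacl1 and Phyh stay filled, Abcd2 and Scp2 are open without mitochondrially encoded genes, Cat is open under both rescalings, and Gnpat is filled only without mitochondrially encoded genes.

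In cHet cords, which carry Cre and a single floxed allele, none of the 30 genes was called against control by limma. The background was also 0 of 15259 genes, and the likelihood ratio and Wald tests of the authors' deposited table called 0 of the 29 genes with a value, Acox2 having none there. At an unadjusted p under 0.05, 6 genes passed (20%, beside 11.3% of all genes), and groups did not overlap for 3 genes (10%, beside 6.23%), 2 higher (background 4.12%) and 1 lower (background 2.10%). The smallest p belonged to Phyh, given above (0.11 ± 0.03, adjusted p = 0.246 by limma). Gnpat (ENSMUSG00000031985, chromosome 8, 124863033 to 124890057, plus strand, sharing 280 bases of exon with Gm16163 on the same strand) was at 54.3, 57.4, 59.2 and 59.0 TPM in control cords, 53.9, 50.9, 51.5 and 53.3 in cHet, and 53.1, 51.3, 55.6 and 53.8 in cKO. Its cHet cords were all below control, with a log2 change of -0.13 ± 0.04 (adjusted p = 0.248 by limma). Scp2 followed at 0.10 ± 0.03 (adjusted p = 0.268 by limma). Pex5l was at 0.01 ± 0.03 and Acox2 at -0.28 ± 0.26, with a 95% interval of -0.85 to 0.29. The interval lay within ±0.5 for 27 genes, the wider ones being Pex10, Pex11a and Acox2. Rescaling to equal totals without the mitochondrially encoded genes gave log2 changes of 0.06 for Phyh, -0.19 for Gnpat and 0.04 for Scp2. The count called stayed at 0. The shares by unadjusted p and by overlap of groups were not worked out at that scaling.

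Between cKO and cHet, which both carry Cre, 2 of the 30 genes rose and 1 fell (10%, beside 5.01% of all genes; 2.41% higher and 2.61% lower). This comparison shares its cKO libraries with the one above. Groups did not overlap for 7 genes (23.3%, beside 11.5%), 6 higher (background 6.14%) and 1 lower (background 5.33%), and 9 genes (30%) had an unadjusted p under 0.05, beside 18.2% of all genes. Acox2 was higher by 1.48 ± 0.26 (adjusted p = 0.00626 by limma) and Phyh by 0.13 ± 0.03 (0.0346), and Pex5l was lower at -0.41 ± 0.03 (1.43e-05). Values of the other 4 genes called against control were 0.18 for Abcd2 (adjusted p = 0.0523 by limma), 0.12 for Cat (0.105), 0.25 for Hacl1 (0.188) and 0.04 for Scp2 (0.577). The authors' deposited table gave q under 0.05 in both tests for Pex5l and Acox2, and for Phyh 0.0898 and 0.0713. For Phyh the limma value passed 0.05 without cHet replicate 1 (0.0828), 3 (0.0713) or 4 (0.0793) and without cKO replicate 2 (0.103), 3 (0.0908) or 4 (0.0716).

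The response of the list did not differ detectably between the sexes. The interaction of genotype (cKO against control) with labelled sex was called by limma for 0 of the 30 genes and 1 of 15259, no member had an unadjusted p under 0.05 (3.88% of all genes did), and leaving out control replicate 1 also gave 0. There were 2 mice per sex and group. Pex5l averaged 198.7 TPM in control and 154.4 in cKO females, and 196.2 and 145.1 in males. Acox2 averaged 1.27 and 3.57 TPM in females and 0.686 and 2.23 in males; without control replicate 1 the male control value is that of a single mouse, 0.844. The log2 change of Hacl1 was 0.60 in females and 0.25 in males; the difference of 0.35 ± 0.19 had an adjusted p of 0.99956 by limma, and it was 0.14 ± 0.14 without control replicate 1, the highest control for this gene.

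A further 7 lists of neighbouring pathways were set beside the 30 genes in cKO against control. Over all genes tested there, 5.75% were called higher, 3.25% were called lower and 22.8% had an unadjusted p under 0.05. The 7 lists, too, were chosen with earlier results of these data known, so a share beside these is no test of a list. Of 20 other peroxisomal lipid enzymes tested 3 rose, Hsdl2 (0.28), Ephx2, a lipid epoxide hydrolase (0.30), and Eci2, which moves double bonds (0.30), and none fell. Of 14 genes of peroxisomal membrane, division and quality control none was called, and 3 had an unadjusted p under 0.05, a share near that of all genes. Of 8 other oxidases and redox enzymes 2 rose, the peroxiredoxins Prdx5 (0.17) and Prdx1 (0.14); without mitochondrially encoded genes in the scaling Prdx1 was not called (0.08, adjusted p = 0.138 by limma). Of 5 genes of sterol side-chain and bile acid synthesis tested, Cyp27a1, a sterol hydroxylase of the mitochondrion, fell (-0.24 ± 0.06, adjusted p = 0.0199 by limma).

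Mitochondrial beta-oxidation, which burns the shorter chains that peroxisomes release, had 11 of 17 genes higher and none lower, beside 5.75% and 3.25% of all genes, with a median log2 change of 0.23. Acaa2, the last thiolase of the spiral, went from 20.6 ± 0.927 TPM in control to 29.9 ± 1.74 in cKO (0.53 ± 0.06, adjusted p = 0.000229 by limma). Decr1, which handles unsaturated chains, rose by 0.48 ± 0.07 and Hadhb, the beta subunit of the trifunctional protein, from 123 ± 7.59 to 156 ± 4.55 TPM (0.34 ± 0.05). Cpt1a, the gate of carnitine-dependent entry, was at 23.0 ± 0.480 and 28.3 ± 0.893 TPM (0.29 ± 0.04). The count was 10 of 17 after rescaling by the median of ratios and 9 of 17 without mitochondrially encoded genes. Of 11 target genes of PPAR alpha outside the peroxisome 4 rose, and 3 of them (Cpt1a, Acadl and Slc25a20) also stand in the mitochondrial list; the other was Angptl4 (0.71 ± 0.18), which at 0.823 ± 0.135 TPM in control cords, 1.21 ± 0.463 in cHet and 1.65 ± 0.117 in cKO passed the level filter through the cords that carry Cre. Negative values in that list were -0.20 for Acot1 and -0.20 for Acot2, and Acot2 was called lower without mitochondrially encoded genes in the scaling (-0.25, adjusted p = 0.0487 by limma). None of the 8 PPAR receptors and partners was called, and 1 had an unadjusted p under 0.05: Pparg, at 0.792 ± 0.0805 TPM in control and 1.28 ± 0.291 in cKO (0.45 ± 0.15, adjusted p = 0.0900 by limma). With a control mean under 1 TPM, Pparg too passed the level filter through the cords that carry Cre.

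**Figure D5:**
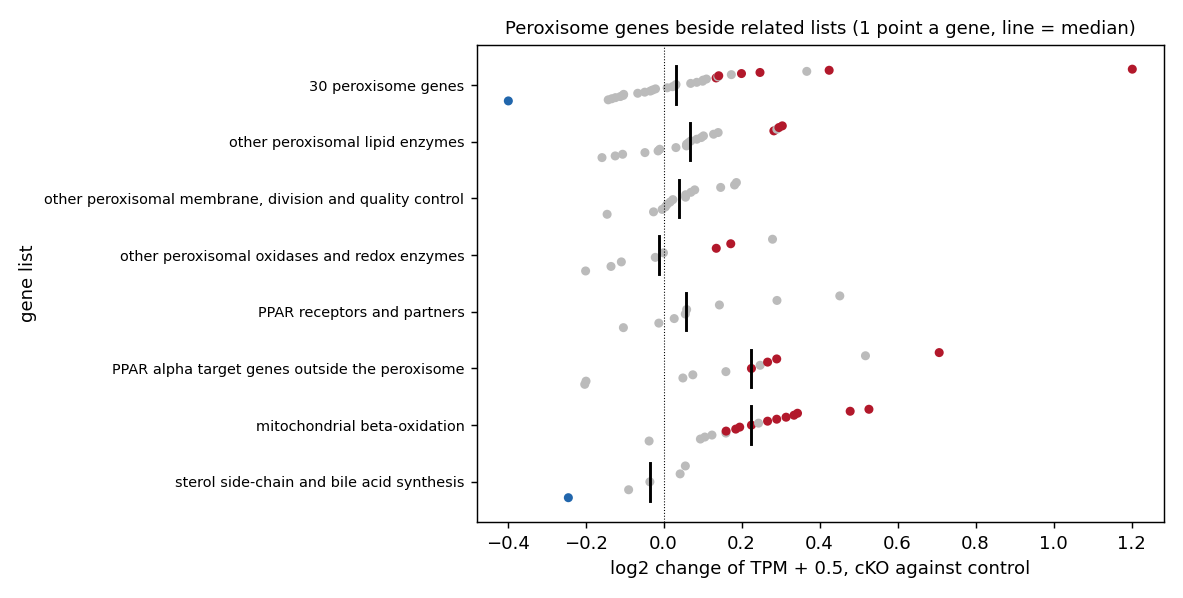
Log2 change of TPM + 0.5 in cKO against control for the 30 peroxisome genes and the genes tested in 7 related lists, 1 point a gene, red where called higher, blue where called lower and grey where not called; the bar is the list's median. The peroxisome list has its median at 0.03, and mitochondrial beta-oxidation has its median at 0.23 with 11 red points.

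Against cHet the mitochondrial list had 6 of 17 genes higher in cKO, beside 2.41% of all genes (median 0.11), the other lipid enzymes 2 (Hsdl2 and Eci2) and the PPAR alpha targets 2 (Cpt1a and Slc25a20), and in cHet against control no gene of the 7 lists was called by limma, with 5 of 17 mitochondrial genes at an unadjusted p under 0.05, beside 11.3% of all genes.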

How the data were processed

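Spinal cord RNA of 12 mice was sequenced with an Illumina TruSeq kit after Trizol extraction, per the labels' protocols. Expression values are the authors' normalized TPM, a signal scaled between libraries, made with kallisto 0.44.0 and sleuth 0.30.0 on GRCm38 per the submitters' processing notes. Their annotation release and filters: not given in the sources used here. TPM keeps no read depth, so depth is unknown. The authors also deposited p-values and q-values from Wald and likelihood ratio tests for each pair of groups, per the file headers.

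A filter at a mean of 1 TPM or more kept 15259 of 36121 genes. Groups were compared on log2(TPM + 0.5) with limma 3.58.1 in R 4.3.3 (eBayes with trend, two-sided), all 12 mice in the fit, no covariate, Benjamini-Hochberg adjustment over all 15259 genes, and a call at an adjusted p under 0.05. "Rose" and "fell" refer to called genes. On simulated data for cKO against control, with 50 of 15259 genes changed by each size, the step recovered 32% of log2 changes of 0.25, 78% of 0.5, 92% of 1 and 98% of 2, with 8 false calls. In the data themselves 1374 genes were called. The adjustment depends on how many genes change, so these rates need not hold for the data. Values per mouse are given for each gene called in any comparison and, where none was called, for the 3 with the smallest p; for Far1 and Pex11g they were added after their values were seen. From each related list up to 6 called genes are named. Gene positions come from GENCODE M21 and promoters from RefSeq. The 30 genes, 7 pathway lists and 11 marker lists were chosen with earlier results of these data known. Alternatives changed the pseudocount, filter, scaling, covariate, fit and replicates; sex as a covariate without control replicate 1 was added after seeing the data.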

Additional observations from a re-analysis of the deposited data

Results flagged for a closer look

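One value lay far from its group. Pex11g in cHet replicate 3 was at 2.67054 TPM, where the other 3 cHet cords held 1.79 to 1.92, a gap that takes up more of the group's range than Dixon's test allows for 4 samples. Over the 30 genes and 3 genotypes 90 groups of 4 were looked at and 1 was picked out; chance picks out about 1 in 20.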

How the results depend on the processing

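The number of the 30 genes called in cKO against control was 7, and 4 to 8 over 21 alternatives, of which only leaving out control replicate 2 moved it by more than 1.5 times; leaving out single mice gave 4 to 7. Against cHet it was 2 to 3, and 0 for cHet against control and for the interaction with sex in every alternative run. No direction of a called gene reversed. Pex5l, Acox2 and Phyh against control were called in all 19 alternatives run for single genes, with adjusted p by limma of at most 0.000282, 0.0447 and 0.00581. Cat missed the threshold in 10 (up to 0.166), Abcd2 in 6 (up to 0.0791), Hacl1 in 2 (up to 0.0560), Scp2 in 1 (0.0790), and Phyh against cHet in 8 (up to 0.103). Fits of the compared groups alone and without single mice hold fewer samples; the cause of the other losses was not tested. No paired analysis was possible because the labels give no replicate numbers that groups share. TPM carries no depth, so the counting error of low genes such as Acox2 and Pex11g is unknown.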
